A study of Mus musculus with 8 samples.

Results

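This is an account of 10 genes of gliosis and acute retinal stress in the mouse retina. They are the cytokine Il33, the vasoactive peptide Edn2, the growth factor Fgf2 and the receptor Osmr. With them are the signalling and transcription genes Stat3, Socs3 and Cebpd, and the glial products Gfap, Lcn2 and Serpina3n. The 10 genes were chosen by name and all were found among the 19938 genes measured. Each is represented by its probe set with the highest mean signal. Adult male C57BL/6 mice, aged 6 weeks when the experiment began, were given either saline or MPTP, a neurotoxin that dopaminergic neurons take up after its conversion to MPP+. Retinas were collected after 7 days (1 week) or 28 days (4 weeks), so that the 4 groups are saline at 1 week, MPTP at 1 week, saline at 4 weeks and MPTP at 4 weeks. Each group had 6 mice and 2 Affymetrix arrays, and each array carried RNA pooled from 4 retinas. The labels name no transgene or mutant allele and give no dose of MPTP. The labels leave out whether the retinas of both pools were from different mice, so p-values measure only the spread between these arrays, which may be partly technical.

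Retinal injury of many kinds activates Mueller glia, the radial glia of the retina, together with astrocytes and microglia. Cytokines of the interleukin-6 family signal through receptors that share the subunit gp130, activate the transcription factor STAT3 and switch on Gfap, the intermediate filament that is the usual marker of gliosis, along with Socs3, which feeds back to inhibit the pathway. Stressed photoreceptors release endothelin-2 (Edn2), which acts on Mueller glia, and Fgf2 is a survival factor for photoreceptors that is known to be induced by light damage and mechanical injury.

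Promoter sequence was taken from RefSeq (GRCm38.p6) in windows of 300 bases, 250 before and 50 after a gene's start. Of the 10 genes, 9 had a window, with a second start for 1 of them, and Cebpd had no entry. The motif of STAT factors, TTCNNNGAA, which reads alike on both strands, was found in 8.3% of 32851 windows and in 2 of the 10 windows of these genes, those of Gfap and Socs3. The C/EBP motif, TTGCNNAA or TTNNGCAA on the other strand, was found in 10.8% of all windows and in 2 of the 10, those of Lcn2 and of the second start of Il33. The start used is that of a RefSeq transcript, and for Socs3, Osmr and the second window of Il33 the whole window lies inside the annotated gene. A match is a string of letters and not a measured binding site. All matched sites are shown, with the motif in capitals and 10 bases on either side. Gfap and Socs3 are textbook STAT3 targets, but whether STAT3 acts through these matches was not tested.
Gfap, chr11:102897184-102897212, minus strand: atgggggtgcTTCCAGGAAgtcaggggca
Socs3, chr11:117969502-117969530, minus strand: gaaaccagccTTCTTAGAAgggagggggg
Lcn2, chr2:32387938-32387965, minus strand: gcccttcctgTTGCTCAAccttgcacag
Il33, chr19:29945695-29945722, plus strand: atcgctccatTTGCATAActttactcat
Counted from the start of that transcript, the match in Gfap ran from base -2 to base 7, that in Socs3 from -154 to -146, that in Lcn2 from -216 to -209 and that in Il33 from -85 to -78. Those in Socs3 and Il33 are thus within the annotated gene. The STAT and C/EBP letters were in none of the windows of Serpina3n, Fgf2, Osmr, Edn2 and Stat3, which says nothing of sites elsewhere.

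Serpina3n, Fgf2, Osmr and Edn2 are the genes of the 10 with the widest range over the 8 arrays. Their bases upstream of the annotated gene are printed for 3 of them, in lower case since neither motif was found. None is printed for Osmr, whose window lies inside its gene.
Serpina3n, chr12:104406458-104406645, plus strand: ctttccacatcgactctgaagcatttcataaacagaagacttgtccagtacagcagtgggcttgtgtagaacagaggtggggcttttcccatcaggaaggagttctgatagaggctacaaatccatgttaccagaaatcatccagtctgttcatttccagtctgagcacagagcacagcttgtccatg
Fgf2, chr3:37348403-37348476, plus strand: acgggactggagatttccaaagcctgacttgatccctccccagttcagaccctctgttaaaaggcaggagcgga
Edn2, chr4:120160956-120161205, plus strand: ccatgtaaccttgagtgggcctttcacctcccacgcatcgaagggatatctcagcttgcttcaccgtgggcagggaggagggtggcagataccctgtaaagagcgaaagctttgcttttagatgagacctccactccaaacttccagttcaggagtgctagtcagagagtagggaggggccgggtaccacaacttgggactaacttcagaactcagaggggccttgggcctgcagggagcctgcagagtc
These stretches hold 188, 74 and 250 bases, with a GC content of 46.3%, 54.1% and 55.6%.

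All values below are the authors' RMA signals on the log2 scale, on which a difference of 1 is a doubling. Pairs of values are array 1 then array 2, and differences are MPTP minus saline with the SE of the limma fit. That SE rests on a spread shared by all 8 arrays, so it is not the scatter of the compared arrays alone. The mean of 8 rod photoreceptor markers lay between 11.37 and 11.50 on every array, and that of 9 markers of inner retinal neurons between 8.52 and 8.67. Saline 1 week array 2 and MPTP 1 week array 1 stood apart on the first principal component (38.3% of the variance), with scores of 15.7 and 19.1, where the remaining 6 arrays scored from -9.39 to -0.391. The mean of 11 lens markers was 8.08 on MPTP 1 week array 2 and 7.06 to 7.76 on the other 7 arrays.

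None of the 10 genes passed the test between MPTP and saline at 1 week, at 4 weeks or over both times (limma with Benjamini-Hochberg adjustment over all genes, adjusted p under 0.05). The share of all 19938 genes that passed was 0% in each of these comparisons. At an unadjusted limma p under 0.05, 1 of the 10 genes was counted at 1 week (Il33), 0 at 4 weeks and 1 over both times (Il33), against 4.22% (842), 1.91% (381) and 4.76% (950) of all genes. The limma adjusted p was 1.0 for each of the 10 genes at 1 week and at 4 weeks. In whole retina, a lower signal from fewer cells of a type cannot be told apart from less RNA per cell.

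Il33 encodes interleukin-33, a nuclear alarmin of the IL-1 family that is released from damaged cells and that Mueller glia can make. Its signal was 8.28 and 8.24 on arrays 1 and 2 of saline at 1 week and 8.54 and 8.47 on those of MPTP at 1 week. At 4 weeks it was 8.20 and 8.02 with saline and 8.30 and 8.33 with MPTP. All 4 MPTP arrays (8.30 to 8.54) were above all 4 saline arrays (8.02 to 8.28), with little distance between the nearest arrays. The log2 difference was 0.24 ± 0.09 (SE) at 1 week, 0.20 ± 0.09 at 4 weeks and 0.22 ± 0.06 over both times, with 95% intervals of 0.04 to 0.45, -0.0034 to 0.41 and 0.09 to 0.36. The unadjusted limma p was 0.0254, 0.0531 and 0.00381, and the adjusted p was 1.0, 1.0 and 0.973, so the difference did not pass the test over all genes. The unadjusted p at 1 week was under 0.05 in 14 of 21 alternative settings and ran up to 0.157, without the 2 arrays that stand apart. Without these arrays the value over both times was 0.20 ± 0.07. The mean of 13 Mueller glia markers was 8.91 and 9.02 with saline and 8.83 and 8.84 with MPTP at 1 week. At 4 weeks it was 8.96 and 8.89 with saline and 8.93 and 8.79 with MPTP, so this mean was not higher with MPTP. Of the 13 markers, 4 were above 0 at 1 week and 3 at 4 weeks. At an unadjusted limma p under 0.05, 3 were lower at 1 week and 1 at 4 weeks, and 0 were higher. The shares of all genes at that threshold were 4.22% and 1.91%.

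Fgf2 encodes basic fibroblast growth factor. Its signal was 7.57 and 7.55 in saline and 7.60 and 7.28 in MPTP at 1 week, then 8.33 and 7.36 in saline and 8.32 and 7.35 in MPTP at 4 weeks. At 4 weeks array 1 was above array 2 and above all 1 week arrays in both treatments, and the treatments gave nearly the same pair of values. MPTP and saline differed by -0.12 ± 0.33 at 1 week and -0.0079 ± 0.33 at 4 weeks.

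Edn2, which encodes the vasoactive peptide endothelin-2, gave 7.24 and 6.86 in saline and 6.80 and 6.92 in MPTP at 1 week. At 4 weeks it gave 7.60 and 6.96 in saline and 7.81 and 6.85 in MPTP. Both arrays 1 of 4 weeks were above the other 6 arrays. MPTP minus saline came to -0.19 ± 0.29 at 1 week and 0.05 ± 0.29 at 4 weeks.

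Osmr encodes the oncostatin M receptor, which pairs with gp130 and through which oncostatin M activates STAT3. Its arrays read 7.41 and 7.17 in saline and 7.28 and 7.15 in MPTP at 1 week, and 7.84 and 6.93 in saline and 7.86 and 6.83 in MPTP at 4 weeks. The high and the low arrays were again array 1 and array 2 of 4 weeks in both treatments. Between MPTP and saline, Osmr differed by -0.08 ± 0.33 at 1 week and -0.04 ± 0.33 at 4 weeks.

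Stat3, the transcription factor activated by gp130 receptors, had a range of 0.36 over the 8 arrays. It read 7.88 and 7.93 in saline and 7.86 and 7.77 in MPTP at 1 week, and 7.99 and 7.65 in saline and 8.01 and 7.73 in MPTP at 4 weeks. Both MPTP arrays were below both saline arrays at 1 week, by 0.09 ± 0.13 on average, and the groups overlapped at 4 weeks (0.05 ± 0.13).

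Socs3 encodes the feedback inhibitor of gp130 signalling and has 2 probe sets. The brighter one read 7.14 and 6.88 in saline and 6.66 and 6.91 in MPTP at 1 week, and 7.00 and 7.01 in saline and 7.03 and 6.90 in MPTP at 4 weeks. The lowest of the 8 values was that of MPTP 1 week array 1, 1 of the 2 arrays that stand apart, and the groups overlapped at both times. The MPTP difference was -0.22 ± 0.12 at 1 week, with an unadjusted limma p of 0.0895, and -0.04 ± 0.12 at 4 weeks. The other probe set read 5.87 and 5.74, 5.69 and 5.80, 5.84 and 5.83, and 6.12 and 5.68 in the same order of groups. With the mean of both probe sets the 1 week difference was -0.14, with an unadjusted limma p of 0.261. The 4 week difference then had the opposite sign, at 0.0087.

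Cebpd encodes C/EBP delta, an acute-phase transcription factor induced by cytokines. Its signal was 6.45 and 6.18 in saline and 6.20 and 6.47 in MPTP at 1 week, and 6.69 and 6.18 in saline and 6.78 and 6.28 in MPTP at 4 weeks. The highest values were again on the arrays 1 of 4 weeks. Cebpd differed between MPTP and saline by 0.02 ± 0.20 at 1 week and 0.09 ± 0.20 at 4 weeks.

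Gfap, the marker by which gliosis is usually scored, read 6.76 and 6.77 in saline and 6.76 and 6.57 in MPTP at 1 week. At 4 weeks it read 6.78 and 6.45 in saline and 6.81 and 6.66 in MPTP. Of the 8 arrays, 5 lay between 6.76 and 6.81, and the lowest was saline 4 week array 2. The MPTP difference was -0.10 ± 0.12 at 1 week and 0.12 ± 0.12 at 4 weeks, with 95% intervals of -0.37 to 0.18 and -0.16 to 0.39. Differences within these bounds are not excluded with 2 arrays a group.

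Serpina3n, a secreted serine protease inhibitor that reactive astrocytes express, had the widest range of the 10 genes. It read 7.42 and 7.03 in saline and 7.18 and 7.25 in MPTP at 1 week, and 7.98 and 6.68 in saline and 8.23 and 7.02 in MPTP at 4 weeks. Its 4 week pairs were 1.31 and 1.21 apart, and both arrays 1 were above all others. The MPTP difference was -0.01 ± 0.42 at 1 week and 0.30 ± 0.42 at 4 weeks, with SEs larger than those of the other 9 genes.

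Lcn2 encodes lipocalin-2, a secreted protein that binds bacterial iron carriers and is made by reactive glia and neutrophils. Its signal was 6.72 and 6.79 in saline and 6.60 and 6.93 in MPTP at 1 week, and 6.88 and 6.81 in saline and 6.91 and 6.70 in MPTP at 4 weeks. It had the narrowest range of the 10 genes, 0.33, and the groups overlapped at both times. Lcn2 differed with MPTP by 0.01 ± 0.12 at 1 week and -0.04 ± 0.12 at 4 weeks, and the mean of 10 neutrophil markers stayed between 5.47 and 5.66 on all arrays.

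**Figure D1:**
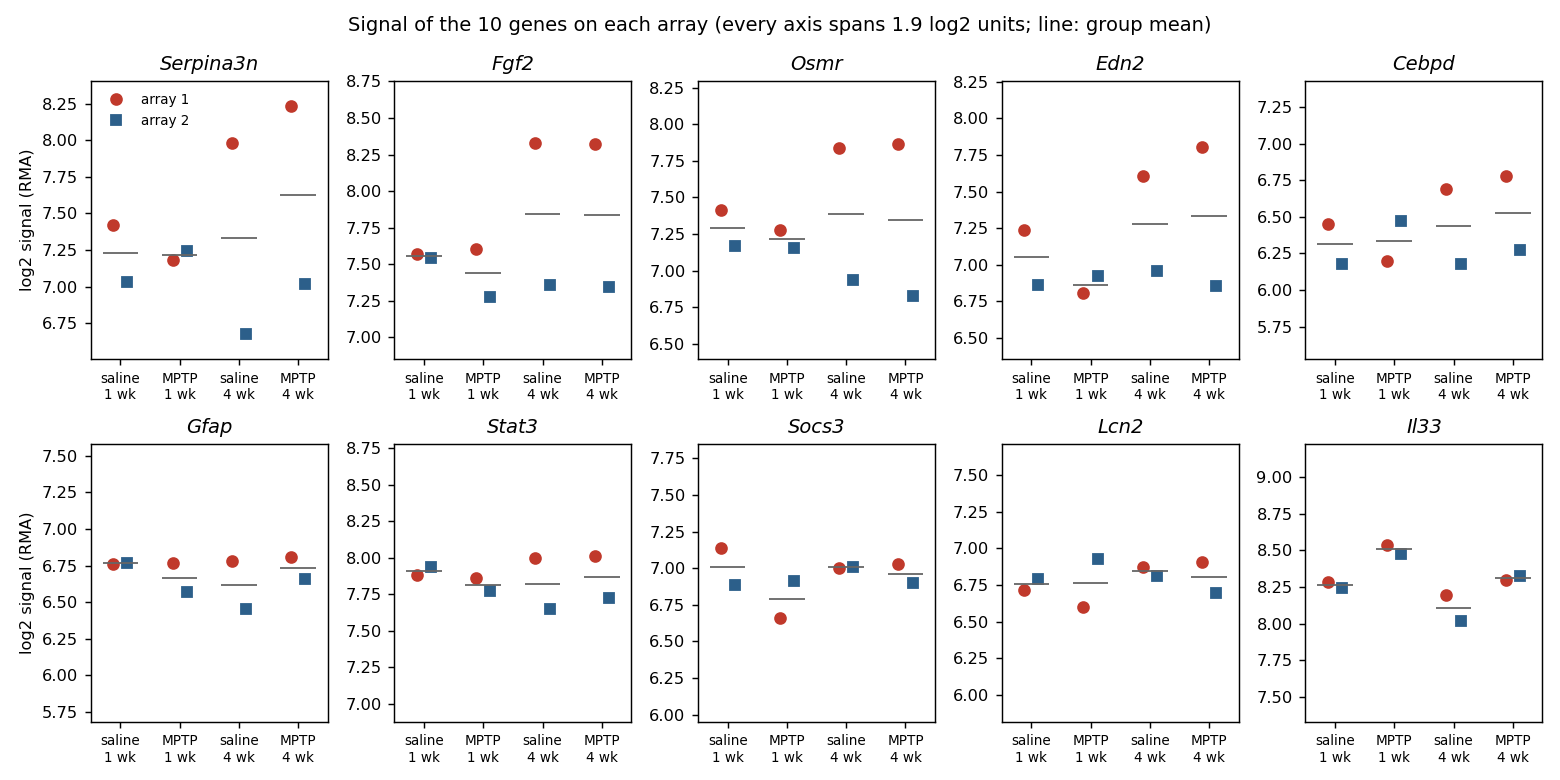
RMA log2 signal (vertical axis) of each of the 10 genes on the 8 arrays, by group; circles are array 1, squares array 2 and lines the group means, and each axis spans the same number of log2 units. The circles of Serpina3n, Fgf2, Osmr and Edn2 at 4 weeks lie between 7.60 and 8.33 in both treatments and their squares between 6.68 and 7.36, while Il33 is higher on the MPTP arrays.

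Across the 10 genes, the 1 week difference between MPTP and saline was positive for 3 and negative for 7 and had a median of -0.083, against a median of -0.0081 and 46.9% above 0 over all genes. At 4 weeks 6 were above and 4 below, with a median of 0.0486, against 0.0043 and 51.8% over all genes. Fgf2, counted below at 4 weeks, was above 0 after quantile or cyclic loess normalization. Over both times 4 were above and 6 below, with a median of -0.0187, against -0.0017 and 49.0% above 0 over all genes. At 1 week Il33 was higher in both MPTP arrays and Stat3 lower, where 12.5% of all genes were higher and 13.8% lower in this way. At 4 weeks Il33 was the 1 gene higher without overlap and 0 were lower, where the shares of all genes were 17.4% and 17.9%. Over both times, 4 arrays against 4, Il33 was the 1 gene without overlap, where 1.01% of all genes were higher and 1.49% lower.

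**Figure D2:**
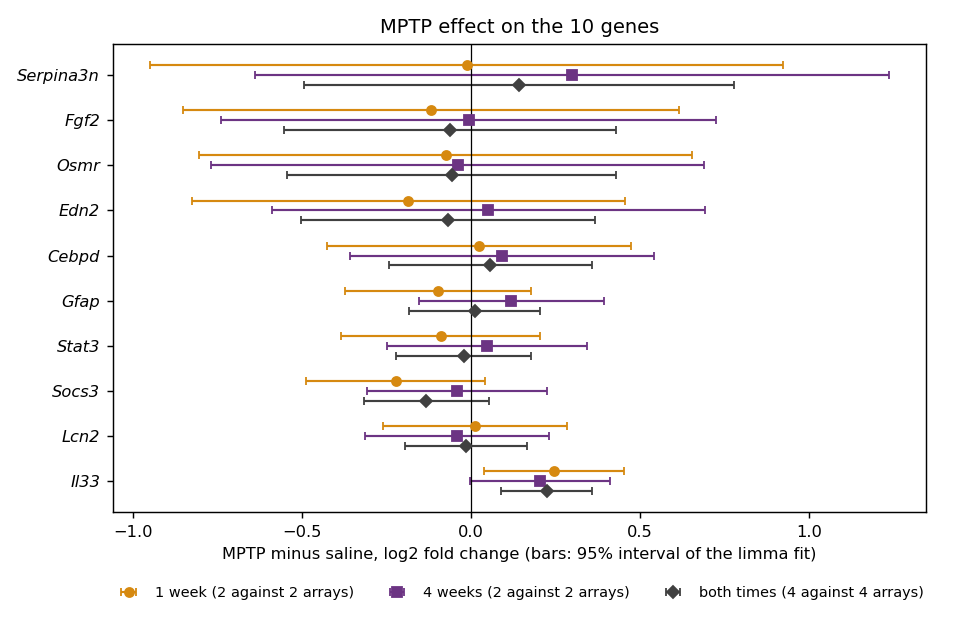
Difference between MPTP and saline (horizontal axis, log2 fold change with the 95% interval of the limma fit) for the 10 genes at 1 week, at 4 weeks and over both times. The intervals of Serpina3n, Fgf2, Osmr and Edn2 are the widest, and that of Il33 over both times runs from 0.09 to 0.36.

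The MPTP effect at 4 weeks minus that at 1 week did not pass the test for any of the 10 genes (limma adjusted p under 0.05; 0% of all genes passed) and 0 of the 10 had an unadjusted p under 0.05, against 1.96% (391) of all genes. Of these differences 8 were above 0, where the share of all genes was 52.2%, with a median of 0.124 against 0.0079 over all genes. From 1 to 4 weeks in saline 0 of the 10 genes passed (limma adjusted p, 0% of all genes) or had an unadjusted p under 0.05 (2.13% of all genes, 424), and the changes ran from -0.155 for Il33 to 0.285 for Fgf2. From 1 to 4 weeks after MPTP 0 of the 10 passed (limma adjusted p, 0% of all genes), the smallest adjusted p being 0.511. None of the 10 had an unadjusted p under 0.05 there, against 9.79% (1952) of all genes, and 9 of the 10 changes were above 0, where the share of all genes was 53.3%. Their median was 0.152, against 0.0145 over all genes, with a range from -0.195 for Il33 to 0.467 for Edn2. For Edn2 the MPTP arrays read 7.81 and 6.85 at 4 weeks, against 6.80 and 6.92 at 1 week. For Serpina3n, Osmr and Stat3, MPTP 4 week array 2 was below both MPTP 1 week arrays. The 10 genes were chosen with the high array 1 of 4 weeks known, so these counts and medians support no change with time. These comparisons share arrays with the comparisons of MPTP and saline.

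The other genes of these pathways, 120 in 11 lists without the 10 genes, were counted in the same way. None passed between MPTP and saline at 1 week, at 4 weeks or over both times (limma adjusted p), and the numbers at an unadjusted p under 0.05 were 2 higher and 3 lower at 1 week, or 4.17%, 0 higher and 1 lower at 4 weeks, or 0.833%, and 1 higher and 3 lower over both times, or 3.33%. The limma adjusted p was 1.0 for each gene named in the next paragraphs. From each list the genes named are those with the smallest unadjusted p. Beside the counts above 0 that follow, the shares of all genes were 46.9% at 1 week and 51.8% at 4 weeks. The genes of a list were read on the same arrays, so they are not independent observations.

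Among upstream signals, 1 of 6 gp130 ligands was above 0 with MPTP at 1 week (median -0.08) and 5 of 6 at 4 weeks (median 0.05). Lif, the leukemia inhibitory factor that activates STAT3 in Mueller glia, differed by -0.25 ± 0.10 at 1 week and 0.14 ± 0.10 at 4 weeks. Il6 differed by -0.20 ± 0.17 at 1 week and Ctf1, which encodes cardiotrophin-1, by 0.11 ± 0.10 at 4 weeks. The mean signal of Il6 lay at percentile 0.61 of all genes, at the low end. Of 9 genes of the IL-33 and IL-1 family, 4 were above 0 at 1 week and 5 at 4 weeks. Il1a, which encodes the alarmin interleukin-1 alpha, read 5.18 and 5.31 in saline and 5.81 and 5.55 in MPTP at 1 week, a difference of 0.44 ± 0.11 with an unadjusted limma p of 0.00266. Both MPTP arrays were above both saline arrays there, while at 4 weeks the pairs were 5.36 and 5.49 in saline and 5.45 and 5.39 in MPTP and overlapped. Il18 differed by 0.22 ± 0.13 at 1 week, and at 4 weeks the adaptor Myd88 and the kinase Irak1 differed by -0.10 ± 0.10 and 0.07 ± 0.09.

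Of 5 other endothelin genes, 2 were above 0 at each time. Edn1, which encodes endothelin-1, read 6.69 and 6.60 in saline and 6.26 and 6.40 in MPTP at 1 week, a difference of -0.31 ± 0.11 with an unadjusted limma p of 0.016, and differed by -0.22 ± 0.11 at 4 weeks. Ece2, an endothelin-converting enzyme, differed by 0.25 ± 0.12 at 1 week. The receptor gene Ednrb differed by -0.22 ± 0.10 at 4 weeks, with an unadjusted limma p of 0.0485. Of 17 FGF genes, 8 were above 0 at 1 week and 10 at 4 weeks. Spred1, an inhibitor of FGF signalling, and the receptor Fgfr1 differed by 0.24 ± 0.10 and -0.20 ± 0.09 at 1 week, and Spry2, another inhibitor, and Fgfr3 by -0.20 ± 0.14 and 0.16 ± 0.12 at 4 weeks.

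Among receptors and kinases of the gp130 pathway, 5 of 7 were above 0 at 1 week and 3 of 7 at 4 weeks. The kinase Jak2 and Il6st, which encodes gp130 itself, differed by 0.16 ± 0.09 and 0.18 ± 0.11 at 1 week, and the receptor Il6ra and the kinase Tyk2 by 0.15 ± 0.11 and 0.10 ± 0.10 at 4 weeks. Of 11 other STAT factors and inhibitors, 4 were above 0 at 1 week and 5 at 4 weeks. Pias1 and Pias3, inhibitors of STAT proteins, differed by 0.21 ± 0.10 and 0.13 ± 0.10 at 1 week, and Socs2 and Pias3 by -0.14 ± 0.09 and -0.10 ± 0.10 at 4 weeks. In the C/EBP family 3 of 5 were above 0 at 1 week and 4 of 5 at 4 weeks. Cebpb and the stress factor Ddit3 differed by 0.25 ± 0.13 and 0.18 ± 0.09 at 1 week, and Cebpa and Cebpb by 0.18 ± 0.12 and 0.16 ± 0.13 at 4 weeks.

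Among downstream genes, 6 of 12 STAT3 targets were above 0 at 1 week and 10 of 12 at 4 weeks, with medians of 0.005 and 0.08. The immediate early gene Fos differed by 0.27 ± 0.12 at 1 week and -0.19 ± 0.12 at 4 weeks, Cebpb, named above, was the next at 1 week, and Junb differed by 0.12 ± 0.09 at 4 weeks. Of 22 reactive glia genes 7 were above 0 at 1 week and 19 at 4 weeks, with medians of -0.04 and 0.07. A rise in the count was not particular to this list. It was 2 and then 5 of 5 for cornea and surface epithelium markers, and 6 and then 10 of 12 for microglia and macrophage markers. Mueller glia markers (4 and then 3 of 13) and lens markers (11 and then 5 of 11) went the other way. At each time 0 of the 22 had an unadjusted limma p under 0.05. The lipid receptor S1pr3 and the filament gene Nes differed by 0.23 ± 0.12 and 0.25 ± 0.15 at 1 week, and Ptx3 and Cd14, which encode pattern recognition proteins, by 0.19 ± 0.14 and 0.14 ± 0.11 at 4 weeks. Of 12 acute-phase and serpin relatives of Lcn2 and Serpina3n, 4 were above 0 at 1 week and 9 at 4 weeks. Orm2, an acute-phase protein, and Serpina3b differed by -0.21 ± 0.11 and -0.22 ± 0.12 at 1 week, and Saa1, which encodes serum amyloid A1, and Orm2 by 0.26 ± 0.14 and -0.17 ± 0.11 at 4 weeks. The mean signals of Saa1 and Serpina3b were low, at percentiles 2.39 and 14.3 of all genes. Of 18 acute stress genes 10 were above 0 at 1 week and 9 at 4 weeks, where Fos (above) and Atf3 at -0.22 ± 0.11 came first at 1 week and Ier3 at -0.14 ± 0.09 and Egr1 at -0.36 ± 0.24 at 4 weeks.

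For Serpina3n, Fgf2, Osmr and Edn2, the widest differences were between the arrays of a group at 4 weeks. There Serpina3n was 2.47-fold higher on array 1 than on array 2 in saline and 2.32-fold in MPTP, Fgf2 1.95-fold and 1.97-fold, Osmr 1.87-fold and 2.05-fold, and Edn2 1.57-fold and 1.94-fold. These pairs hold 1 array each, so the differences are a description with no test. Of the 10 genes, 4 were at least 1.5-fold higher on array 1 in saline and 4 in MPTP, where the shares of all genes were 0.186% (37) and 0.256% (51). The same 4 genes were counted in both groups, against 0.0702% (14) of all genes. Edn2 was the gene nearest inside this threshold, and Cebpd, 1.43-fold higher on array 1 in saline, the nearest outside. The 10 genes were chosen with this difference between arrays already known, so these shares describe the choice and support nothing.

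Sorted by the smaller of the log2 differences of both 4 week groups, Serpina3n (1.21) was at rank 1 of 19938 genes, Fgf2 (0.97) at 2, Osmr (0.90) at 6 and Edn2 (0.65) at 10. Cebpd followed at rank 21 with differences of 0.51 in saline and 0.50 in MPTP, Stat3 at 86 with 0.35 and 0.29, and Gfap at 467 with 0.32 and 0.15. Lcn2 had 0.06 and 0.21, Socs3 -0.01 and 0.13, and Il33 0.18 and -0.03. Array 1 was thus above array 2 in both groups for 8 of the 10, where the share of all genes was 25% (4975). For 7 of the 10, Gfap, Edn2, Serpina3n, Cebpd, Stat3, Fgf2 and Osmr, both arrays 1 of 4 weeks were above the other 6 arrays, where the share of all genes was 2.18% (435). The median difference of the 10 genes was 0.43 in saline and 0.39 in MPTP, against -0.01 and 0.00 over all genes. With this difference known when the genes were chosen, these ranks, counts and medians also describe the choice and support nothing.

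The same genes had smaller array differences at 1 week. Serpina3n differed by 0.39 between array 1 and array 2 of saline and by -0.06 in MPTP, Fgf2 by 0.03 and 0.32, Osmr by 0.24 and 0.13, and Edn2 by 0.38 and -0.12. None of the 10 reached 1.5-fold in either direction in either group, where the shares of all genes were 1.04% (207) in saline and 1.05% (210) in MPTP, so a count of 0 is near the background. Array 1 was above array 2 in both 1 week groups for 3 of the 10, where the share of all genes was 18.2% (3637). The medians were 0.14 in saline and 0.00 in MPTP, against 0.03 and -0.02 over all genes. Within an array number at 4 weeks, MPTP and saline differed by -0.003 and -0.013 for Fgf2 (array 1 and array 2), 0.03 and -0.11 for Osmr, 0.20 and -0.10 for Edn2 and 0.25 and 0.34 for Serpina3n, all smaller than the gap between the arrays of a group.

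**Figure D3:**
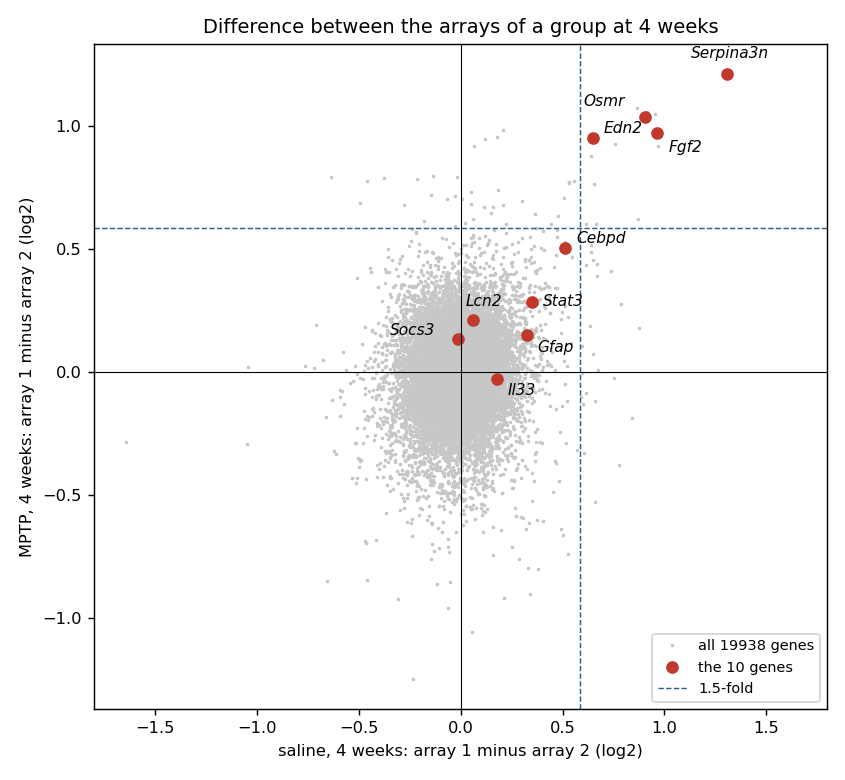
Array 1 minus array 2 (log2) at 4 weeks in saline (horizontal axis) and in MPTP (vertical axis) for all 19938 genes (grey) and the 10 genes (red), with dashed lines at 1.5-fold. Serpina3n, Fgf2, Osmr and Edn2 lie in the upper right corner beyond both lines, Cebpd just below both lines, and Il33, Socs3 and Lcn2 in the cloud of all genes.

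The 10 other genes at least 1.5-fold higher on array 1 in both groups, named after their values were seen, were Fgf2os, Ifitm3, A2m, Lrrc2, Btc, Trf, Tceanc2, Cltrn, Ctss and Tmem26. A2m encodes the protease inhibitor alpha-2-macroglobulin (0.91 in saline and 1.06 in MPTP), Ifitm3 an interferon-induced membrane protein (0.97 and 0.92), Btc the growth factor betacellulin (0.75 and 0.93), Trf transferrin (0.65 and 0.77) and Ctss the protease cathepsin S of microglia and macrophages (0.67 and 0.60). Fgf2os is an antisense transcript annotated over Fgf2, with 0.95 and 1.05, and read 7.51 and 7.20, 7.04 and 6.72, 8.02 and 7.07, and 8.15 and 7.10 in the order of groups used above. Nudt6, also annotated over Fgf2, read 6.74 and 6.24 in saline and 6.94 and 6.23 in MPTP at 4 weeks. Whether the probes of these 3 genes measure separate transcripts was not tested. Spidr, which overlaps Cebpd in the annotation, was flat, at 6.98 to 7.22.

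Likeness of pattern was measured by the root mean square difference of log2 values over the 8 arrays after centring each gene, and given for the 3 genes of the 10 with the widest range. Names of predicted models, clones, olfactory and vomeronasal receptors, microRNAs and other small RNAs were passed over. The ranking and the medians are those of the genes kept. The nearest of these genes to Serpina3n were A2m (0.149), Lrrc2 (0.161) and Osmr (0.189), where the median of the genes kept was 0.495. Nearest to Fgf2 were Osmr (0.139), Antxr2 (0.153) and Btc (0.155), with a median of 0.408, and nearest to Osmr were Btc (0.0582), Tceanc2 (0.106) and Lrrc2 (0.112), with a median of 0.370. All points come from the same 8 arrays.

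The array difference was counted in the wider pathways too. Of the 120 genes in the 11 lists, 45 were higher on array 1 in both 4 week groups (37.5%, against 25% of all genes), and 1, A2m, by at least 1.5-fold. By list the counts were 2 of 6 gp130 ligands, 3 of 7 receptors and kinases, 3 of 11 STAT factors and inhibitors, 8 of 12 STAT3 targets, 12 of 22 reactive glia genes, 0 of 5 endothelin genes, 6 of 17 FGF genes, 2 of 9 IL-33 and IL-1 family genes, 2 of 5 C/EBP genes, 2 of 12 relatives of Lcn2 and Serpina3n, and 9 of 18 acute stress genes. Named after their values were seen, the adhesion receptor Cd44 was 0.28 and 0.31 higher on array 1 and the immediate early gene Egr1 0.37 and 0.59. The list medians of array 1 minus array 2 at 4 weeks ran from -0.11 (IL-33 and IL-1 family) to 0.10 (reactive glia genes) in saline and from -0.07 (endothelin genes) to 0.17 (STAT3 targets) in MPTP, on both sides of 0.

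Markers of other cell types moved with the array difference in part, and the share of all genes for the counts that follow was 25%. Of 11 pigment epithelium markers 8 were higher on array 1 in both 4 week groups, among them Rpe65, the visual cycle isomerase (0.64 and 0.49), and Ttr, which encodes transthyretin (0.47 and 0.58). Their mean was 7.53 and 7.35 in saline and 7.51 and 7.29 in MPTP at 4 weeks, and 7.41 and 7.28 in saline and 7.20 and 7.74 in MPTP at 1 week. The array with the highest mean of these markers was MPTP 1 week array 2, which also had the highest mean of lens markers (8.08). On it Serpina3n read 7.25, Fgf2 7.28, Osmr 7.15, Edn2 6.92 and Cebpd 6.47. Of these, Fgf2 was at its lowest of the 8 arrays, and Cebpd at its highest after both arrays 1 of 4 weeks. Of 13 Mueller glia markers 9 were higher on array 1 in both 4 week groups, and their means are given beside Il33. Of 12 markers of microglia and macrophages 5 were higher, with means of 6.57 and 6.47 in saline and 6.61 and 6.60 in MPTP at 4 weeks and 6.42 to 6.60 at 1 week, and of 7 endothelial and pericyte markers 4. The counts were 1 of 6 for astrocytes, 1 of 10 for neutrophils, 3 of 8 for rods and 0 of 11 for lens, of whose markers 8 were lower on array 1 in both groups. The part of these cell types in the array difference of the 10 genes was not tested.

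**Figure D4:**
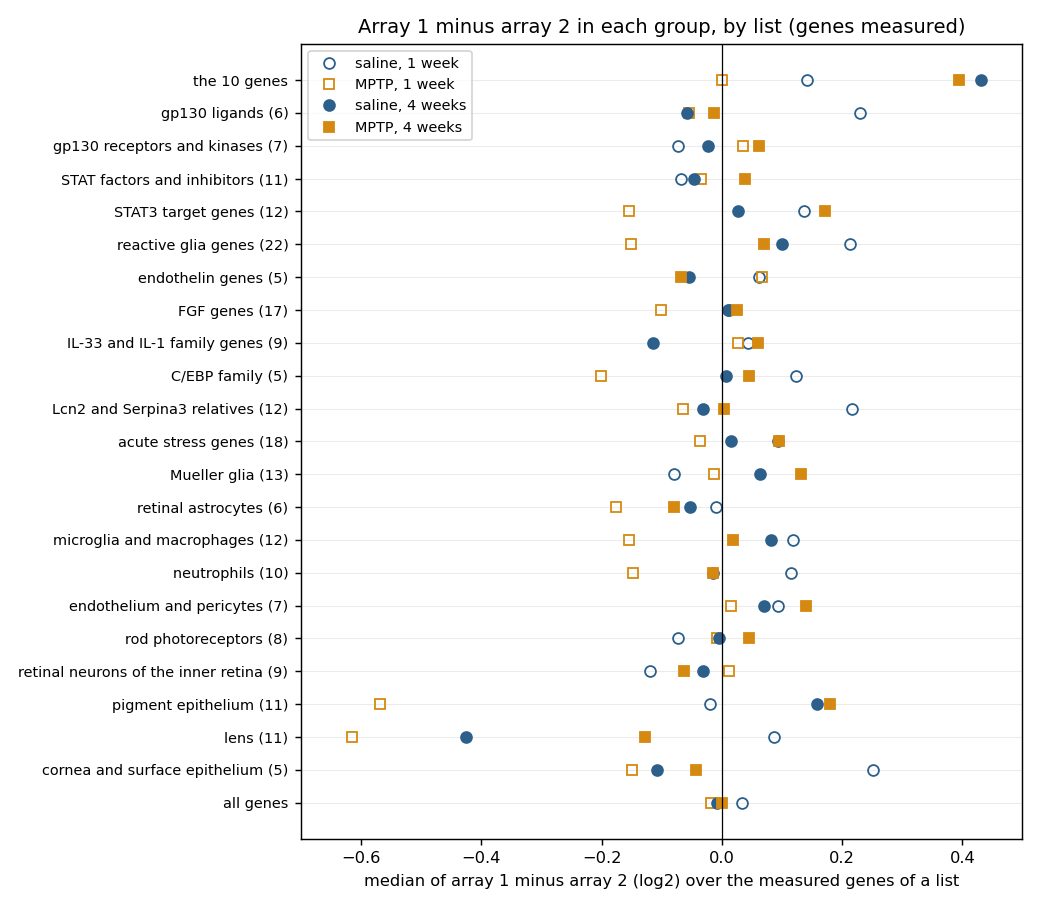
Median of array 1 minus array 2 (horizontal axis, log2) over the measured genes of each list, for the 4 groups (open symbols 1 week, filled symbols 4 weeks; circles saline, squares MPTP), with the number of genes in brackets. The filled symbols of the 10 genes lie at 0.43 and 0.39, those of the pigment epithelium markers at 0.16 and 0.18, and those of all genes at -0.01 and 0.00.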

How the data were processed

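Per the submitters' processing notes, the authors made the deposited log2 values by RMA in Affymetrix Expression Console (version not given). Per the labels' protocols, 100 ng of RNA was amplified with an SPIA kit and biotin-labelled. No scan batch is stated. Of 28944 probe sets, 21789 name exactly 1 gene in the platform annotation, 1621 name several and 5534 have no entry. The brightest probe set of each gene was kept (999 genes had more than 1, of the 10 genes Socs3), which left 19938 genes, 19856 of them matched to RefSeq by gene ID.

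With limma 3.58.1 in R 4.3.3 (two-sided, lmFit and eBayes), a mean per group over all 8 arrays (4 residual degrees of freedom) gave 5 comparisons. A model with additive time and treatment (5 residual degrees of freedom) gave the effect over both times, from 4 arrays against 4. Adjusted p-values are Benjamini-Hochberg values over the genes tested, and ± is the SE of the fit, with 2 arrays a group. The spread behind this SE is shared by all 4 groups, so a 1 week SE also holds the gap between the 4 week arrays. Fitted to the 1 week groups alone, the 1 week SE was 0.15 for Serpina3n and Edn2, 0.14 for Fgf2 and 0.13 for Osmr. The code was tested on simulated data, and the number of arrays limits the precision. Differences between the arrays of a group have no test. The 10 genes, the lists and the tests were chosen with earlier results of these data known. From each pathway list the 2 genes with the smallest unadjusted p are named. Alternatives were other normalizations, a filter at percentile 50 of signal, other probe set rules, trend and robust settings, a fit of the compared groups alone, a block for the array number, and leaving out arrays. Added after seeing the data were blocks within each time, leaving out array 1 or array 2 of both 4 week groups, and other folds for the array difference. Deviations of same-numbered arrays from their group means correlated at -0.38 at 1 week and 0.119 at 4 weeks, so the numbers were not taken as pairs. Plots used matplotlib 3.10.9 under Python 3.11.15.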

Additional observations from a re-analysis of the deposited data

Results flagged for a closer look

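Within the 4 arrays of a treatment over both times, 1 array stood apart from the other 3 for 2 genes, as measured by its gap to the nearest array divided by the whole range, which exceeds the 95% critical value of Dixon's test for 4 arrays. For Gfap in saline this ratio was 0.938, since saline 4 week array 2 read 6.45 and the other 3 arrays 6.76 to 6.78. For Edn2 in MPTP it was 0.881, since MPTP 4 week array 1 read 7.81 and the other 3 arrays 6.80 to 6.92. The search covered 20 groups of 4 arrays, and chance sets 1 array apart in about 1 of 20 independent groups. These groups share arrays and mix both times. The genes were also chosen with the gap between the 4 week arrays known. That rate therefore does not apply here, and the flags describe single values and support nothing.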

How the results depend on the processing

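None of the 10 genes passed the adjusted threshold of limma between MPTP and saline under any alternative, the smallest adjusted p being 0.506 at 1 week, 0.909 at 4 weeks and 0.512 over both times. The direction was kept in 196 of 206 values at 1 week, 184 of 206 at 4 weeks. Over both times it was followed for Socs3 and Il33 alone, which kept it in 39 of 39. Il33 kept its sign throughout, at 0.19 to 0.28, 0.10 to 0.31 and 0.19 to 0.26, with unadjusted p from 0.0146 to 0.157 at 1 week (under 0.05 in 14 of 21 alternatives), 0.0235 to 0.541 at 4 weeks (8 of 21) and 0.00171 to 0.0371 over both times (20 of 20), and 0.22 over both times with the replicate block, which made no call. With array numbers exchanged at 1 week the block made 0 calls, with 1627 genes at an unadjusted p under 0.05. Besides Il33, Socs3 at 1 week and Serpina3n at 4 weeks had an unadjusted limma p under 0.05 in some alternatives but not in most. The remaining genes had none in any alternative. The 4 week sign turned for Fgf2 with quantile (0.0235) and cyclic loess (0.0114) normalization, for Socs3 with the mean of probe sets (0.0087), for Edn2 without array 1 of both 4 week groups (-0.1017), and for Lcn2 (0.0334), Socs3 (0.0307) and Osmr (0.0276) without array 2 of both. Leaving out 1 array at a time turned signs over these ranges: at 1 week Gfap -0.1958 to 0.0001, Lcn2 -0.1539 to 0.1744, Edn2 -0.3751 to 0.0023, Serpina3n -0.2083 to 0.1807, Cebpd -0.1158 to 0.1607, Fgf2 -0.28 to 0.0428 and Osmr -0.1961 to 0.0459, and at 4 weeks Gfap -0.044 to 0.2808, Lcn2 -0.1464 to 0.0638, Edn2 -0.426 to 0.5266, Serpina3n -0.3563 to 0.9508, Cebpd -0.1651 to 0.3477, Stat3 -0.127 to 0.2209, Socs3 -0.1092 to 0.0253, Fgf2 -0.4954 to 0.4795 and Osmr -0.56 to 0.4787. The cause was not tested. Serpina3n, Fgf2, Osmr and Edn2 were at least 1.5-fold higher on array 1 in both 4 week groups under 3 other normalizations, the filter and the mean of probe sets. At 2-fold there was 1, Serpina3n, also 1 of all genes, and at the lower fold tried there were 5, with Cebpd. Comparisons between times were not run with a block within each time, since that block lies within a time. Over all genes, the count at an unadjusted p under 0.05 ran from 477 (only the groups compared) to 1876 (without saline 1 week array 2) at 1 week, where 842 is reported, from 114 (without array 1 of both 4 week groups) to 942 (only the groups compared) at 4 weeks, where 381 is reported, and from 595 to 1624 over both times, where 950 is reported. The corresponding ranges were 179 to 1445 for the difference of the effects, 157 to 1688 for time in saline and 660 to 3141 for time after MPTP. In the last, 1 gene, none of the 10, passed the adjusted threshold without MPTP 1 week array 1, alone or together with saline 1 week array 2.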
